A study of Mus musculus with 134 samples.

Results

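Myc and 33 genes of ribosome biogenesis were followed across 134 mammary tumors. The genes were chosen by their function, and each was read from the probe set with that single gene symbol, or from the one with the highest mean where a gene had more than 1. All 34 named genes were on the array, out of 19938 genes measured. The tumors came from a backcross that began with MMTV-PyMT males and MOLF/EiJ females. Their F1 sons with the transgene were mated to FVB/NJ females, and the N2 daughters that inherited it carried the tumors. The mouse mammary tumor virus promoter drives the polyoma middle T antigen mainly in mammary epithelium, so all tumors shared 1 driver, while each animal carried its own set of MOLF segments. No animal was treated, ages were not given, and each tumor was 1 sample on 1 Mouse Gene 1.0 ST array. The labels give no contrast between tumors, so the genes were set against Myc itself, against a cell cycle score, and between the tumors whose titles run from 1 to 106 and those from 107 to 134, a division whose meaning the labels do not give.

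Ribosomes are assembled in the nucleolus. RNA polymerase I transcribes a precursor of ribosomal RNA, small nucleolar ribonucleoproteins (snoRNPs) modify it, and assembly factors cut and fold it into the small and large subunits. MYC is a transcription factor that binds the E-box CACGTG together with MAX and is known for raising the genes of this pathway in growing cells, and dividing cells need the pathway to supply ribosomes to their daughters. Of the genes followed, Nop58, Nop56 and Fbl build the box C/D snoRNPs and Nop10, Nhp2, Gar1 and Dkc1 the box H/ACA snoRNPs, with Nolc1 as their chaperone. Polr1a, Polr1b and Polr1c are subunits of RNA polymerase I, and Rrn3, Ubtf and Mybbp1a act on its transcription. Nop14, Wdr43, Wdr75, Utp20 and Rrp9 belong to the processome that begins the small subunit, and Bysl, Ltv1, Tsr1 and the nuclease Nob1 act later on it. Nop2, Wdr12, Bop1, Pes1, Brix1, Rrs1, Ebna1bp2 and Gnl3 serve the large subunit, and Ncl and Npm1 are abundant nucleolar proteins.

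Start regions of 5 members are printed to show that E-box in genes that followed Myc closely and in genes that did not. Their correlation with Myc across tumors ran from 0.0396 in Tsr1 and 0.112 in Rrn3 through 0.410 in Nop2 to 0.639 in Mybbp1a and 0.653 in Polr1a, the only one of them without these letters. RefSeq gave a region for 29 of the 34 genes, each with 250 bases before and 50 after the annotated start in the GRCm38.p6 build. Bop1, Fbl, Myc, Npm1 and Rrs1 had none there. The letters CACGTG, which read the same on both strands, are in capitals. Each region is on the plus strand: Rrn3 at chr16:13780449-13780748, Mybbp1a at chr11:72441077-72441376, Nop2 at chr6:125131633-125131932, Tsr1 at chr11:74897830-74898129 and Polr1a at chr6:71908803-71909102.
Rrn3: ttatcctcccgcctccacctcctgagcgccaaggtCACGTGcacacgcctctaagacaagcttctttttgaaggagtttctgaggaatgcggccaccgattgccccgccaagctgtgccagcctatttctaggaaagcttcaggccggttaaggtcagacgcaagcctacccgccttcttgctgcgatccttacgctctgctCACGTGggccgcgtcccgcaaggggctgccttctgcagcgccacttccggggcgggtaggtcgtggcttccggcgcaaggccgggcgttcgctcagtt
Mybbp1a: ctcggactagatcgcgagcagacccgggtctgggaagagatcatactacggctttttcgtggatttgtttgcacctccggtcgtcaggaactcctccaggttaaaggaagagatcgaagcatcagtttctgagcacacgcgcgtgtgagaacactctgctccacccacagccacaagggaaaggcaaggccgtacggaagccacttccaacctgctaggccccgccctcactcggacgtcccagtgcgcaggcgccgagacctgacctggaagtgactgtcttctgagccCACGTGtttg
Nop2: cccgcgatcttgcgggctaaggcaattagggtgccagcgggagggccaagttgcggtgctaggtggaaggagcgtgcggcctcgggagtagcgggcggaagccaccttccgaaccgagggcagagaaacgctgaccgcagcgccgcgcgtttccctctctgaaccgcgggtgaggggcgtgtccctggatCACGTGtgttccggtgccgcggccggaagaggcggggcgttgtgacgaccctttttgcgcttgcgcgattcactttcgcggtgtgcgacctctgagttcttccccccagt
Tsr1: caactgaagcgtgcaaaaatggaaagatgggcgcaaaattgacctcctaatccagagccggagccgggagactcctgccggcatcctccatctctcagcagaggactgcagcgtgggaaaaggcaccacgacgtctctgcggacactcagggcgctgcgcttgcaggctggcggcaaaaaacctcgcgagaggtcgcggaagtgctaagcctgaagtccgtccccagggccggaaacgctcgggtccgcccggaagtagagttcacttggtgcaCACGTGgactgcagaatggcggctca
Polr1a: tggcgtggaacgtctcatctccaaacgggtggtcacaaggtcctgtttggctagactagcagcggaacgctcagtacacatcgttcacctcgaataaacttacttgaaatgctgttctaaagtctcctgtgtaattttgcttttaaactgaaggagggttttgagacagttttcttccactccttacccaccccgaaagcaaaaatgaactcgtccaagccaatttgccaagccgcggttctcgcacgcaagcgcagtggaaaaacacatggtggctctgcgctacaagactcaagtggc
Rrn3 held the motif at 2 places, 215 and 48 bases before the start. The motif began 60 bases before the start in Nop2, and after it in Mybbp1a and Tsr1, and Polr1a did not hold these letters. In all, 8 of the 29 genes (27.6%) held it in a start region, the others being Ltv1, Pes1, Utp20 and Wdr43. Among all 27025 genes with such a region the share was 8.09%, and among the 10890 of them with a level above the detection floor it was 11.3%. Across tumors the correlation with Myc had a median of 0.412 in the 8 genes with the motif (Tsr1 lowest, Mybbp1a highest) and of 0.392 in the 21 without it, which included Polr1a. The motif is a match of letters only.

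All tumors gave a signal for the module. The detection floor was 5.72 on the log2 scale, taken as the 95th percentile of the means of 1190 receptor genes of smell, which are not thought to be used in the mammary gland, and all 34 genes had a mean above it. In 33 of them every tumor was above the floor, and Rrs1, a factor of large subunit assembly, was above it in 127 of 134. All 6 markers of luminal epithelium (Epcam, Cdh1, Krt8, Krt18, Krt19 and Cldn4) had means above the floor. So did 13760 of the 19938 genes, so this alone does not identify the tissue. Markers of other cells were present too, with all 6 of fibroblasts, skeletal muscle, endothelium and macrophages above the floor on average, 4 of 5 measured for adipocytes and 2 of 5 each for T cells and B cells. In a bulk tumor, fewer tumor cells and less RNA per cell cannot be told apart.

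Certain arrays stood apart. Tumor 73 had the lowest value of 17 of the 34 genes, together with the lowest summed level of the luminal markers (12.18 against a median of 13.8 in tumors 1 to 106) and the highest of the adipocyte (13.71), skeletal muscle (15.22), endothelial (12.17) and fibroblast markers (13.02, on the log2 scale). Tumors 132, 133 and 134, the last of the series, had the 3 highest scores on the second principal component of the module, at 10.4, 7.65 and 12.1, and the next tumor stood at 4.99. They combined low Myc, Ubtf, Mybbp1a and Nolc1 with high Tsr1, Dkc1, Rrn3 and Rrs1. Leaving out tumors 132 to 134 was chosen after seeing the data. The choice used the values of these same genes, so results without these tumors are descriptions and no independent support. The tumors numbered 109 to 120 resembled those numbered 97 to 108 when each was paired with the one 12 lower. Over the 34 genes as z-scores, the 12 pairs correlated at 0.378 on average (0.0082 to 0.928), beside 0.0263 for the other 132 pairings of these tumors, and over all genes at 0.365 beside 0.0648. The labels give nothing that links them, and counts are also given without tumors 97 to 120 where they moved by over 1.5 times. The deviation of an array from the median array was taken as the median absolute relative log expression. It is called array quality below and is higher in more deviant arrays. It was 0.0676 to 0.270 (median 0.0987), with tumors 73, 132, 133 and 134 at 0.249, 0.175, 0.159 and 0.208.

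**Figure D1:**
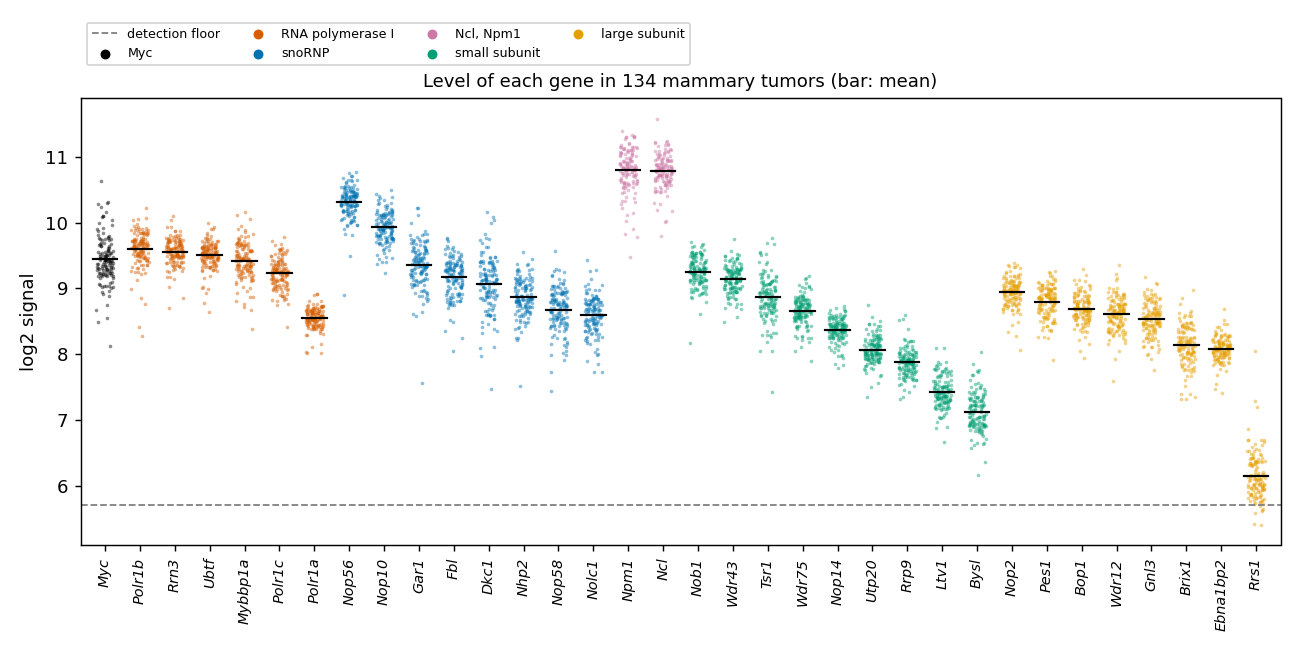
Log2 signal of each gene in each of the 134 tumors, grouped by role, with the mean as a bar and the detection floor (5.72) as a dashed line. Every gene but Rrs1 lay above the floor in all tumors, and heights of different genes come from different probes and are not comparable with each other.

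Myc varied more between tumors than most genes. Its level was 9.44 ± 0.37 (SD, n = 134), with the lowest tumor at 8.12, the median at 9.42 and the highest at 10.63. The SD was above that of 87.9% of the 13760 genes over the floor. The lowest value was in tumor 73 and the next in tumor 134 (8.49), and the highest was in tumor 126. The level of Myc therefore spanned 5.69-fold between its extremes, but 1.81-fold between the 10th and 90th percentiles. Tumor 126 was also the highest for Nop58, Nolc1, Wdr43, Utp20, Ltv1, Gnl3 and Ncl.

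Of the 5 roles beside Myc, the snoRNP genes had the widest spread, with a median SD of 0.295 over 8 genes. Dkc1, the pseudouridine synthase of the box H/ACA particles, ranged from 7.47 through a median of 9.11 to 10.16, and its SD of 0.415 was the largest of the module. Gar1, its partner in the same particles, ran from 7.57 in tumor 73 through 9.36 to 10.23 in tumor 133. Nop58 of the box C/D particles ran from 7.44 through 8.72 to 9.56. Both Gar1 and Nop58 thus had their lowest value in tumor 73, whereas Dkc1 was lowest in tumor 17 (7.47) and stood at 8.09 in tumor 73. The smallest spread was that of Polr1a, the largest subunit of RNA polymerase I, which ran from 8.02 through 8.55 to 8.92 (SD 0.157). Over the 34 genes the median SD was 0.247.

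The 34 genes moved together, in part. The median Pearson correlation over their 561 pairs was 0.405, beside 0.0005 for all pairs of the 13760 genes above the floor, and 534 of the 561 were above 0. These correlations are descriptions over 134 tumors that share a normalization and a mixture of cell types. Taken within the runs of titles, the median was 0.444 (1 to 106) and 0.323 (107 to 134), and leaving out tumor 73 gave 0.368. It was 0.427 without tumors 132 to 134, where 555 pairs were above 0. Quantile normalization once more gave a median of 0.316, the lowest of the alternatives, with 499 pairs above 0. Of the 4 roles with more than 2 genes, small subunit factors had the highest median within a role (0.505 over 36 pairs), and RNA polymerase I genes the lowest (0.290 over 15 pairs).

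Partners in 1 complex were not always the closest. Nop58 and Gnl3, a nucleolar GTPase of large subunit assembly, were the closest pair at 0.857, followed by Nop56 and Polr1b, the second subunit of RNA polymerase I, at 0.835. Nop56 and Nop58, which sit in the same box C/D particle with the methyltransferase Fbl, correlated at 0.483, and Fbl with them at 0.302 and 0.201. In the PeBoW complex of the large subunit, Bop1 and Pes1 correlated at 0.606, Pes1 and Wdr12 at 0.401, and Bop1 and Wdr12 at 0.099. Fbl and Wdr12 were each read from 1 of 2 probe sets, which correlated with each other at only 0.491 for Fbl and 0.731 for Wdr12. Low values with these genes can therefore also come from the probe set. Within RNA polymerase I, the subunits Polr1a and Polr1b correlated at 0.230. The 2 abundant nucleolar proteins Ncl and Npm1 correlated at 0.622.

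Ubtf, which opens ribosomal DNA for transcription, was the odd one. It took part in all 6 of the lowest pairs, with Dkc1 (-0.28), Rrs1 (-0.27), Tsr1 (-0.25), Polr1b (-0.24), Rrn3 (-0.20) and Wdr12 (-0.16). These negative values rested largely on tumors 132 to 134, without which the 6 pairs ran from -0.18 (with Polr1b) to 0.0265 (with Wdr12), and that with Dkc1 was -0.13. The closest fellow of Ubtf was Bop1, at 0.712. The first principal component held 42.3% of the variance of the 34 genes, and the second held 16.9%. On the second, Ubtf, Bop1, Fbl, Mybbp1a, Nolc1 and Myc had the most negative weights (-0.34 to -0.22), and Tsr1, Dkc1, Rrs1, Rrn3 and Polr1b the most positive (0.23 to 0.17). The genes with the most negative weights lie toward the end of the plot of pairwise correlations where Myc stands.

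**Figure D2:**
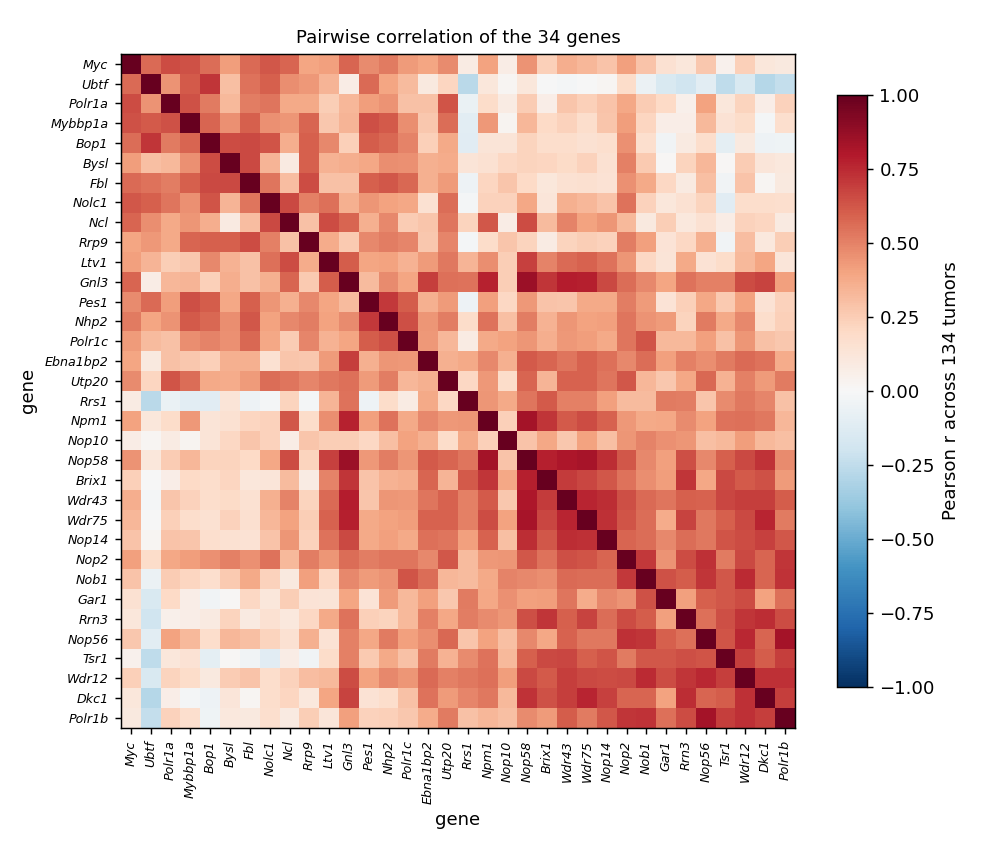
Pearson correlation across 134 tumors for every pair of the 34 genes, from blue (negative) to red (positive). Myc comes first, and the others follow by their correlation with Myc minus that with the cell cycle score, from highest to lowest. Ubtf forms the pale to blue band, down to -0.28 with Dkc1, and the highest value is that of Nop58 and Gnl3 (0.857).

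Of the 33 genes other than Myc, 26 rose with Myc and 0 fell, at an adjusted p under 0.05 in limma over all genes. Among all 19937 genes tested, 19.3% rose and 24.2% fell by the same rule. The median slope of the 33 was 0.088 on the log2 scale per 1 SD of Myc. All 33 slopes were positive, from 0.014 in Tsr1 to 0.18 in Nolc1. Genes of each role rose: 5 of 8 snoRNP genes, 4 of 6 genes of RNA polymerase I, 8 of 9 of the small subunit, 7 of 8 of the large subunit, and both Ncl and Npm1.

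The tightest followers of Myc were Polr1a (r = 0.653), Mybbp1a (0.639), a nucleolar protein that binds Myb and restrains ribosomal RNA synthesis, and Nolc1 (0.624), which escorts snoRNPs. Mybbp1a ran from 8.38 in tumor 134 through a median of 9.43 to 10.17, and Nolc1 from 7.73 in tumor 132 through 8.61 to 9.43 in tumor 126. Their lowest values were in tumors that were also low in Myc. Nolc1 rose by 0.18 ± 0.020 (SE) per SD of Myc, a 1.14-fold step, with an adjusted p of 5.87e-13 in limma. Mybbp1a rose by 0.18 ± 0.019 (adjusted p = 9.57e-14). Polr1a rose by 0.10 ± 0.010 (adjusted p = 4.27e-14). The nucleolar GTPase Gnl3 (r = 0.585), nucleolin Ncl (0.580), Ubtf (0.567), the methyltransferase Fbl (0.563) and Bop1 (0.558) came next.

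Those not called were Nop10, Gar1, Dkc1, Polr1b, Rrn3, Tsr1 and Rrs1. Tsr1, a GTPase-like factor of late small subunit maturation, ran from 7.43 through 8.86 to 9.77, and its slope with Myc was 0.014 ± 0.029 (adjusted p = 0.727). Rrn3, the initiation factor that brings RNA polymerase I to the ribosomal DNA and whose start region held the E-box at 2 places, had a slope of 0.023 ± 0.018 (adjusted p = 0.289). Polr1b had a slope of 0.026 ± 0.024 (adjusted p = 0.369). RNA polymerase I genes were therefore on both sides, with Polr1a, Polr1c, Ubtf and Mybbp1a called and Polr1b and Rrn3 not. Without tumors 132 to 134 the count was 30 of 33 (19.3% of all genes higher), with Gar1, Dkc1, Rrn3 and Rrs1 now called and only Nop10, Polr1b and Tsr1 not. Those tumors stood apart by low Myc with high Dkc1, Rrn3 and Rrs1, so the choice itself favours this gain. Without tumor 73 it was 22 of 33 (19% of all genes), as the calls of Nop56 (adjusted p = 0.181), Nob1 (0.0677), Wdr12 and Brix1 were lost, and without the 2 tumors of most extreme Myc it was also 22.

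**Figure D3:**
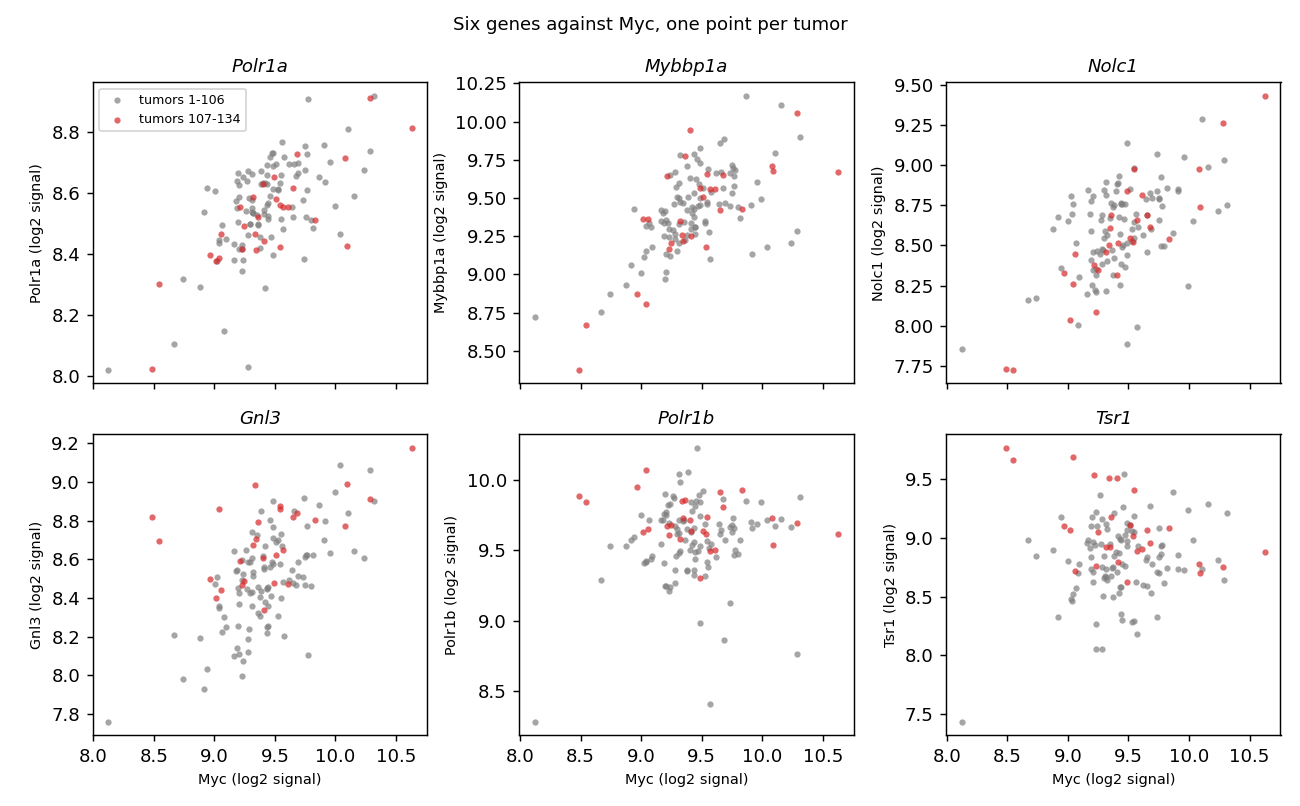
Log2 signal of 6 genes (y axes) against that of Myc (x axes), 1 point per tumor, grey for tumors 1 to 106 and red for 107 to 134. Polr1a, Mybbp1a, Nolc1 and Gnl3 rise with Myc (r = 0.653, 0.639, 0.624 and 0.585), while Polr1b and Tsr1 do not slope with it (0.0957 and 0.0396) and the red points at the lowest Myc are tumors 134 and 132.

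All 34 genes, Myc included, rose with the cell cycle score, the mean z-score of 16 mitotic genes such as Top2a, Cdk1 and Plk1. Among all 19922 genes tested, 21.8% rose and 23.5% fell. The strongest relation was that of Nop2, a methyltransferase of the large subunit ribosomal RNA, at r = 0.757, and Nop56 (0.735), Nop58 (0.734) and Wdr12 (0.711) were next. A second probe set of Wdr12 gave 0.462. Nop2 ran from 8.06 in tumor 73 through 8.96 to 9.38. It rose by 0.16 ± 0.012 per SD of the score (adjusted p = 4.04e-24). The steepest slope was that of Dkc1, at 0.27 ± 0.027, a 1.21-fold step (adjusted p = 4.86e-16). Ubtf had the shallowest, at 0.041 ± 0.017 (adjusted p = 0.0461). Its call was lost under 8 of 14 alternatives, with a slope of 0.0068 after quantile normalization (adjusted p = 0.792), 0.014 with array quality as a covariate (adjusted p = 0.594) and 0.035 without tumor 73 (adjusted p = 0.0786).

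The correlation was higher with the cell cycle score than with Myc in 24 of the 33 genes. Myc was the RNA signal of 1 probe set and the score a mean over 16 genes. The comparison, here and in the joint fit below, is therefore between unlike measures. The other 9 were Fbl, Nolc1, Polr1a, Ubtf, Mybbp1a, Rrp9, Bysl, Bop1 and Ncl, of which Rrp9 and Ncl had nearly equal values. The mean z-score of the 33 genes correlated at 0.843 with the cell cycle score, 0.870 with a score of 16 S phase genes and 0.580 with Myc. Myc and the cell cycle score were themselves related, with r = 0.431 (95% interval 0.282 to 0.560; permutation p = 1e-05, the smallest that 100000 resamples can give, two-sided) and rho = 0.295 (p = 0.0005). Leaving out the 2 tumors with the most extreme Myc gave r = 0.286, and the 2 runs of titles gave 0.459 and 0.430.

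Both covariates were then fitted together, so that each slope is at a fixed level of the other. Myc kept a positive slope past the threshold in 17 of 33 genes, beside 16.6% of all genes, and the cell cycle score in 28 of 33, beside 20.4%. A negative slope with Myc passed in 3 genes, beside 19.4% of all genes. The joint fit divided the module into 4 sets. In 12 genes both slopes were positive and called: Nop58, Fbl, Nhp2, Nolc1, Polr1c, Utp20, Rrp9, Ltv1, Pes1, Ebna1bp2, Gnl3 and Ncl. In 5 genes Myc alone was called, namely Polr1a, Ubtf, Mybbp1a, Bysl and Bop1, of which the first 3 act on RNA polymerase I. In 13 the cell cycle score alone was called: Nop56, Nop10, Gar1, Rrn3, Nop14, Wdr43, Wdr75, Nob1, Nop2, Wdr12, Brix1, Rrs1 and Npm1. In Dkc1, Polr1b and Tsr1 the cell cycle slope was positive and the Myc slope negative. Of the 17 positive Myc slopes, those of Fbl, Nolc1, Polr1a, Ubtf, Mybbp1a, Bop1 and Ncl kept the call under all 12 alternatives. The other 10 lost it under at least 1, namely Nop58, Rrp9 and Ebna1bp2 under 4 each, Polr1c and Ltv1 under 3, Utp20 under 2, and Nhp2, Bysl, Pes1 and Gnl3 under 1.

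Mybbp1a had the steepest slope with Myc in this fit, at 0.16 ± 0.021 (adjusted p = 7.28e-10), and a cell cycle slope of 0.045 ± 0.021 (adjusted p = 0.0685). For Ubtf the slopes were 0.12 ± 0.016 with Myc (adjusted p = 4.57e-09) and -0.011 ± 0.016 with the score (adjusted p = 0.616). Dkc1 was at the other end, with 0.31 ± 0.029 for the score (adjusted p = 3.57e-17) and -0.086 ± 0.029 for Myc (adjusted p = 0.0162). The negative slopes of Dkc1 and Tsr1 rested largely on tumors 132 to 134, without which they were -0.035 (adjusted p = 0.381) and -0.029 (adjusted p = 0.443). Polr1b kept its slope there (-0.058, adjusted p = 0.0193, beside -0.066 over all tumors). Among tumors 1 to 106 alone 0 of 33 passed (5.23% of all genes), with Polr1b at -0.053 (adjusted p = 0.0900). Both covariates together accounted for a median of 40.9% of a gene's variance, from 8.41% in Rrs1 to 58.2% in Nop2.

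**Figure D4:**
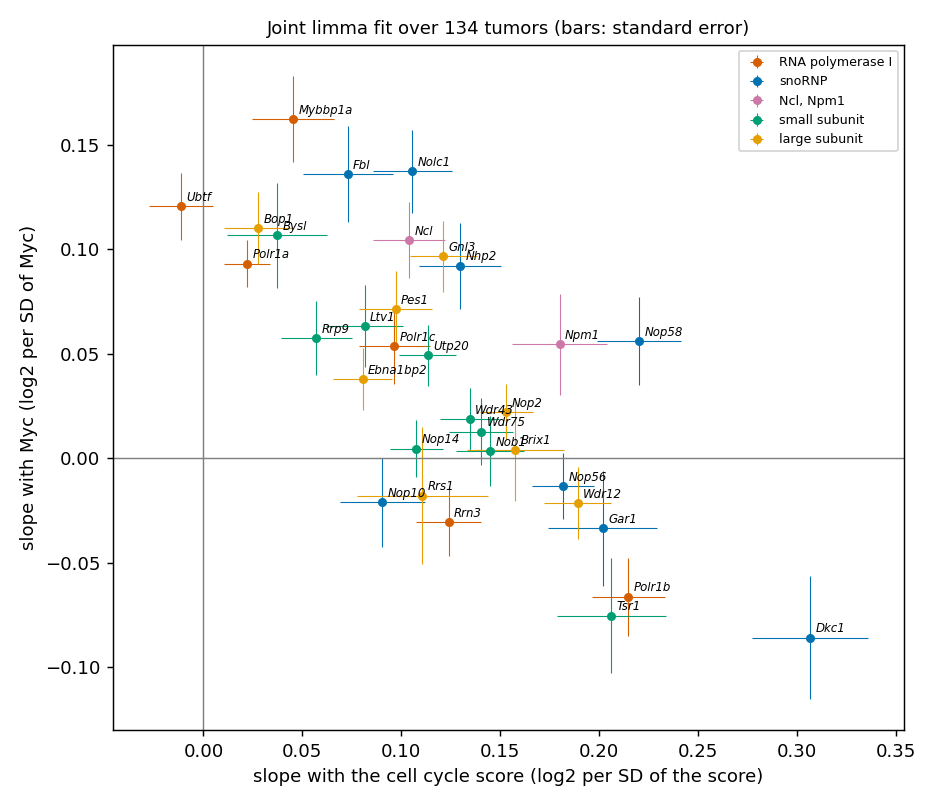
Slope with Myc (y axis) against slope with the cell cycle score (x axis) for 33 genes in the joint limma fit over 134 tumors, in log2 per SD, with standard errors as bars and role as colour. Mybbp1a (0.16) and Ubtf (0.12) lie high at the left, with slopes mainly on Myc, and Dkc1 lies lowest at the far right (-0.086 with Myc, 0.31 with the score).

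Other genes of the pathway were counted from a longer list. Of 73 further ribosome biogenesis genes measured, 51 rose with Myc and 0 fell, beside 19.3% and 24.2% of all genes. With the cell cycle score 67 rose, beside 21.8%. In the joint fit 28 rose and 4 fell with Myc while 61 rose with the score, beside 16.6%, 19.4% and 20.4% of all genes. Sdad1 (r = 0.686 with Myc) and Noc4l (0.686) were the highest and Utp6 (-0.071) the lowest. Tcof1, the treacle protein that works with Ubtf at the ribosomal DNA, correlated at 0.613 with Myc, and in the joint fit its slope was 0.12 ± 0.016 with Myc (adjusted p = 1.32e-09) and 0.013 with the score (adjusted p = 0.562). Of 12 ribosomal protein genes measured, 10 rose with Myc and all 12 with the score, from Rpl13 (r = 0.644 with Myc) to Rps6 (-0.11). In the joint fit 7 of them rose and 1 fell with Myc, and 8 rose with the score. The shares of all genes are those given above.

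MYC targets outside ribosome biogenesis were counted as well. Of 16, 8 rose with Myc and 15 with the score, beside 19.3% and 21.8% of all genes. In the joint fit 4 rose and 5 fell with Myc, beside 16.6% and 19.4% of all genes. The highest was Shmt2, a mitochondrial enzyme of serine metabolism (r = 0.530), and the lowest Paics of purine synthesis (-0.10). Of 13 members of the Myc family and its partners, 4 rose and 1 fell with Myc, where 19.3% of all genes rose and 24.2% fell. Zbtb17, the partner through which MYC lowers genes, was the most positive (r = 0.299) and Mlxipl the most negative (-0.23). Of 4 measured genes that MYC is known to lower, 0 fell, where 24.2% of all genes did. Their slopes ran from -0.17 per SD of Myc, which was not called, to 0.24 in Ndrg1 (adjusted p = 0.000208 in limma). A list of 4 genes is too short to be read against that share.

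Beyond the lists, the 5 genes closest to the mean z-score of the 33 genes were the condensin subunit Ncapg (r = 0.875), the nuclear pore gene Nup43 (0.850), the splicing factor Sf3a3 (0.842), the cohesin protector Sgo1 (0.842) and the kinetochore gene Cenph (0.832). The 5 most opposed were Lncpint (-0.69), Sptb (-0.68), Tns2 (-0.68), P2rx6 (-0.68) and Pde4d (-0.67). Closest to Myc were the histone genes H2bc14 (0.659) and H1f1 (0.650), with Ppp1r14b (0.655), Cdca8 (0.649) and Tnpo2 (0.646). Most opposed to Myc were Sbk2 (-0.55), Asb1 (-0.54), Myom3 (-0.53), Ppm1k (-0.52) and Chrne (-0.52). These were searched among 13538 genes over 134 tumors and are a description.

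Markers of certain other cells moved with the module. The mean z-score of the 33 genes correlated with the luminal score at 0.439. Its correlation was -0.37 with fibroblasts, -0.45 with adipocytes, -0.37 with skeletal muscle and -0.39 with endothelium. With array quality, which is higher in more deviant arrays, it was -0.36. Rank correlations were smaller for all of these, at 0.253 for luminal epithelium, -0.29 for fibroblasts, -0.21 for adipocytes, -0.23 for skeletal muscle, -0.098 for endothelium and -0.079 for array quality. Without tumor 73 the luminal value was 0.277 and the endothelial -0.20. The scores of macrophages, T cells and B cells correlated with that of the 33 genes at 0.087, -0.082 and -0.0056. Their rank correlations were 0.065, -0.22 and -0.17. Array quality ran at -0.49 in tumors 1 to 106 and 0.339 in tumors 107 to 134. With the 7 scores of other cell types as covariates, 20 of 33 genes rose with Myc and 32 of 34 with the cell cycle score (15.5% and 14.4% of all genes in these fits), and the median pairwise correlation of the module was 0.323.

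Neighbours in the genome moved little with the members. The mean correlation of a member with its 20 nearest measured genes had a median of 0.0515, beside 0.0422 over all genes above the floor. Bop1 on chromosome 15 stood out, with a mean of 0.336 that lay above 99.5% of genes. Of its 20 neighbours 15 correlated positively with Myc, where 7841 of 13759 genes above the floor did. Brix1 and Myc lie on the same chromosome, and 8 and 11 of their 20 neighbours did so. A part of the chromosome in these values was not tested. By gene position Nop58 and Wdr12 are neighbours on chromosome 1, and they correlated at 0.664. The neighbour closest to Myc was Pvt1, at 0.481. Positions were taken from the gene symbol. For Wdr12 and Fbl the identifier of the probe set used lay among those of genes on other chromosomes. Which locus these probe sets read was not tested.

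Between the 2 runs of titles, 11 of the 34 genes were higher in tumors 107 to 134 and 1 was lower, beside 7.7% of all genes higher and 6.67% lower. Myc was not among them, at a mean of 9.44 in the earlier run and 9.45 in the later, a difference of 0.010 ± 0.078 (adjusted p = 0.949). Brix1, an early factor of large subunit assembly, ran from 7.31 through a median of 8.07 to 8.49 in tumors 1 to 106 and from 8.13 through 8.44 to 8.97 in tumors 107 to 134. The runs overlapped, but the median of the later one was near the highest of the earlier. The difference was 0.43 ± 0.052 (adjusted p = 7.22e-10), a 1.35-fold step. Rrs1, another factor of the large subunit, ran from 5.41 through 6.03 to 6.86 and from 5.76 through 6.41 to 8.05, a difference of 0.42 ± 0.067 (adjusted p = 2.50e-06). The median of Rrs1 in the earlier run was close to the detection floor.

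The other higher genes were Dkc1 (0.33), Npm1 (0.30), Tsr1 (0.28), Nop58 (0.27), Gar1 (0.23), Gnl3 (0.21), Rrn3 (0.18), Wdr43 (0.18) and Wdr75 (0.14). Fbl was lower, at 9.01 ± 0.39 (SD, n = 28) against 9.21 ± 0.25 (n = 106), a difference of -0.20 ± 0.061 (adjusted p = 0.0187). Fbl was thus lower where Nop58, of the same particle, was higher. Without tumors 132 to 134, 8 genes were higher and 0 lower, as Dkc1, Gar1, Wdr75 and Fbl were no longer called, and Brix1 stood at 0.40 and Rrs1 at 0.33, while 3.87% of all genes were higher and 3.81% lower. Without tumors 97 to 120, 13 were higher and 6 lower (9.23% and 7.72% of all genes). Markers of other cells differed between the same runs, with 3 of 6 macrophage markers, 2 of 6 fibroblast markers and 1 of 6 endothelial markers higher and 1 of 6 luminal markers lower (-0.27), and their part in the result was not tested. Of the 73 further ribosome biogenesis genes, 30 were higher and 1 lower over all tumors, beside 7.7% and 6.67% of all genes. What else changed between the runs is not given, so that the titles, the arrays and the animals cannot be told apart.

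**Figure D5:**
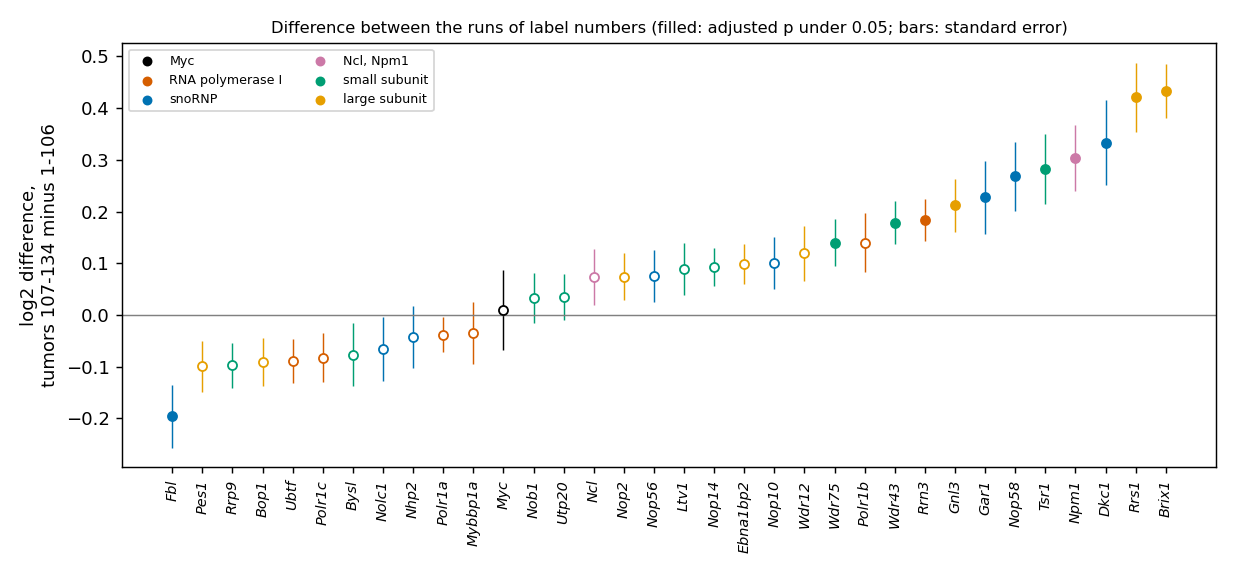
Difference in log2 signal, tumors 107 to 134 minus tumors 1 to 106, for the 34 genes in order of size, with standard errors as bars, role as colour and filled points for an adjusted p under 0.05. Brix1 (0.43) and Rrs1 (0.42) are at the right end, Fbl (-0.20) at the left, and Myc (0.010) near 0.

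The slope with Myc itself differed between the runs in 12 of the 33 genes, 10 with a lower and 2 with a higher slope in tumors 107 to 134, beside 4.78% and 3.38% of all genes. Gar1 correlated with Myc at 0.402 in tumors 1 to 106 and at -0.53 in tumors 107 to 134, and Tsr1 at 0.261 and -0.57, whereas Nolc1 correlated at 0.486 and 0.903. In tumors 1 to 106 all 33 genes correlated positively with Myc (0.182 to 0.671), and in tumors 107 to 134, 22 did. Tumors 132, 133 and 134 had Myc at 8.54, 9.04 and 8.49, Nolc1 at 7.73, 8.26 and 7.73, and Tsr1 at 9.67, 9.69 and 9.77. Without them, 0 of 33 slopes differed between the runs (0.015% of all genes in each direction), and 29 of 33 genes correlated positively with Myc in the remaining 25 tumors of the later run. Tumors 132 to 134 were chosen on the values of these same genes, so this is a description. The slope with the cell cycle score differed between the runs in 0 of 34 genes, beside 0.125% of all genes, whether or not these tumors were kept.

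In 2 genes a second probe set could be compared. For Fbl the pair correlated at 0.491, and the one not used correlated with Myc at 0.273, where the one used gave 0.563. For Wdr12 the pair correlated at 0.731, with 0.238 and 0.253 for Myc. With the cell cycle score the Wdr12 probe set used correlated at 0.711 and the other at 0.462, so the size of that relation depended on the probe set. The relation of Fbl to Myc thus depended on the probe set. With the cell cycle score the Fbl probe set used correlated at 0.442 and the other at 0.503. Only the one used was therefore closer to Myc than to the score.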

How the data were processed

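RNA from 134 MOLF x PyMT mammary tumors was hybridised to Mouse Gene 1.0 ST arrays, 1 array per tumor. The deposited values are log2 signals per probe set, which the authors made with RMA (version not given in the sources used here). Whether arrays of other crosses were normalized together with these is not given either. RMA sets the probe values of all arrays to 1 distribution, so a shift shared by most genes may not be seen. The medians of the deposited arrays still ran from 6.30 to 6.54. After quantile normalization once more, 21 of 33 genes rose with Myc (12.8% of all genes), beside 26 as reported. Genes can be compared between tumors but not with each other. The number of arrays limits the precision.

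Of 35556 probe sets, 21789 had 1 gene symbol in the platform table and gave 19938 genes, taking the highest mean of the 999 genes with several. For Npm1, 3 probe sets shared with Gm15484 were left out. The association of every gene with Myc (z-score), with the cell cycle score and with both was estimated over 134 tumors in R 4.3.3 (limma 3.58.1), leaving out the genes that formed the covariate, and p-values were adjusted by Benjamini-Hochberg over all genes at a threshold of 0.05. The runs of titles and their interaction with each covariate were fitted likewise. The fit was tested on simulated data. A single relation, Myc against the cell cycle score, was tested with 100000 permutations. Descriptions were computed in Python 3.11.15 (pandas 2.3.3, numpy 2.4.6, scipy 1.17.1).

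The genes named are all members, the most positive and negative of the lists of further genes, and the 5 genes with the highest and lowest correlation with the module and with Myc. Of the genes that MYC lowers, only the most positive is named. Tcof1 was chosen after its values were seen. The members and lists were chosen with earlier results of these data known. Each tumor was counted as 1 independent sample, although the arrays numbered 97 to 108 and 109 to 120 resembled each other in pairs, and no sample was unassigned. Genotypes, subtypes and outcome were not used here. Promoter sequences are from RefSeq (GRCm38.p6), matched by symbol.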

Additional observations from a re-analysis of the deposited data

Results flagged for a closer look

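In 12 genes the slope with Myc differed between the runs of titles in the interaction term of the limma fit over all genes. In 10 of them it was lower in tumors 107 to 134 and in 2 higher, beside 4.78% and 3.38% of all genes. The difference, tumors 107 to 134 minus tumors 1 to 106 in log2 per SD of Myc, was -0.28 for Gar1, -0.24 for Tsr1, -0.23 for Rrs1, -0.16 for Npm1, -0.16 for Wdr12, -0.14 for Nhp2, -0.14 for Nob1, -0.12 for Brix1, -0.10 for Gnl3 and -0.089 for Ebna1bp2. It was 0.13 for Nolc1 and 0.10 for Ubtf. Among tumors 107 to 134, Nolc1 correlated with Myc at 0.903 and Tsr1 at -0.57, and without tumors 132 to 134 these were 0.848 and -0.32 over 25 tumors. Without tumor 73 the slope differed in 3 genes downwards (2.27% of all genes), and without tumors 97 to 120 in 8 (5.09%). On ranks or without tumors 132 to 134 it differed in 0 (0.015% of all genes in each direction without those tumors). These alternatives were chosen after seeing the data.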

How the results depend on the processing

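No paired analysis was possible because the tumors form 1 group. Over all 167 member results, the alternatives gave 1969 values, of which 1748 kept direction and side of the threshold, 115 lost the call, 46 gained it and 60 reversed. Of the 60, 6 were of results that had been called. Another 32 were slopes or differences of at most 0.066 in size that had not been called in the joint fit or between runs and were not called after turning, and the rest are given here by value. Tumors 107 to 134 alone (28 arrays) gave 14 genes higher and 2 lower with Myc (14.9% and 19.8% of all genes), 10 higher with the cell cycle score (5.05%), 8 lower with Myc in the joint fit (22.4%) and 16 higher there with the score (7.61%). The joint count of genes lower with Myc was 1 with other cell types as covariates (16.4% of all genes), 0 in tumors 1 to 106 alone (5.23%) and 1 without tumors 132 to 134 (12.9%). The count lower in tumors 107 to 134 was 3 after quantile normalization (6.69%), 3 with other cell types (5.25%), 6 without tumors 97 to 120 (7.72%) and 0 without tumors 132 to 134 (3.81%). The slope difference between runs was called in 3 genes downwards without tumor 73 (2.27%), and in 0 in either direction on ranks and without tumors 132 to 134. In tumors 107 to 134 alone the Myc slope turned for Nop56 (-0.017), Nop10 (-0.068), Gar1 (-0.17), Dkc1 (-0.069), Polr1b (-0.050), Rrn3 (-0.036), Nob1 (-0.034), Tsr1 (-0.19), Wdr12 (-0.057), Brix1 (-0.017) and Rrs1 (-0.16), and, of the joint Myc slopes that were called, those of Nop58 (-0.027) and Ebna1bp2 (-0.021). Quantile normalization turned it for Dkc1 (-0.0020), Polr1b (-0.0035), Rrn3 (-0.0093) and Tsr1 (-0.017), other cell types for Dkc1 (-0.011), Rrn3 (-0.0071) and Tsr1 (-0.011), leaving out tumor 73 for Polr1b (-0.0101) and Tsr1 (-0.027), leaving out the 2 farthest tumors for Polr1b (-0.011) and Tsr1 (-0.028), and ranks for Tsr1 (-0.13, in ranks). The run difference of Myc turned after quantile normalization (-0.019), without tumor 73 (-0.0029) and without tumors 97 to 120 (-0.064). The cause was not tested.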
